A study of Mus musculus with 46 samples.

Results

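Matrix metalloproteinases are zinc-dependent enzymes that cleave collagens, laminins, elastin and other proteins outside the cell, and tissue inhibitors of metalloproteinases (TIMPs) are small secreted proteins that block them. The 10 genes described here are 7 metalloproteinase genes (Mmp2, Mmp9, Mmp12, Mmp13, Mmp14, Mmp15 and Mmp19) and 3 inhibitor genes (Timp1, Timp2 and Timp3), taken by symbol from the 23329 genes of a count table of mouse glioma macrophages. All 10 were found and all 10 passed the filter on low counts in every fit. The tumours were raised in nTVA mice with both Ink4a/Arf copies knocked out (KO/KO), which were 5 to 6 weeks old when DF1 cells making the RCAS-PDGFB-HA virus were injected into the brain, and every group carries this deletion and this PDGFB-driven tumour. Microglia (MG, the brain's own macrophages) had the gate CD45+CD11b+Ly6C-Ly6G-CD49d-. They and bone marrow-derived macrophages (BMDM, the same gate but CD49d+) were both taken from each of 23 mice, 46 libraries in all. Mice had been given vehicle (4 mice), BLZ945, an inhibitor of the CSF1 receptor, for 5 days (4), radiation (IR) with collection at 5 days (2), or IR+BLZ945 with collection at 5 days (3). Other mice carried tumours that had recurred after BLZ945 (2), IR (4) or IR+BLZ945 (4). Replicates are separate mice, named by their number in the labels, and the PDGFB tumour model and the CD49d gate limit what either population stands for.

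Most metalloproteinases are secreted as inactive proenzymes, while membrane-type members such as Mmp14 and Mmp15 are anchored in the cell surface. The classic activation of the Mmp2 proenzyme needs both Mmp14 and Timp2: Timp2 docks the proenzyme on a surface Mmp14 molecule, and a neighbouring free Mmp14 cleaves it, so that Timp2 assists at low amounts and inhibits at high amounts. In gliomas, macrophages and microglia are known sources of these enzymes, and microglial Mmp14 has been tied to activation of Mmp2 released by glioma cells.

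Total counts ran from 3007379 to 16993474 per library. Doubted libraries number 6. Of these 5 had fewer than 11000 genes at 10 or more counts (BMDM of 122, 124 and 65698, MG of 65971 and 68344), and MG of 65698 is the remaining one, since the MG and BMDM libraries of this 5-day IR mouse disagreed in their sex-linked genes. Group means of Cdkn2a, the deleted locus, lay between -2.79 and 0.69 log2 CPM, counts scaled to a common library total. The summed CPM of 8 microglia markers was higher in MG than in BMDM in all 23 mice (6902 to 32940 in MG, 966 to 10720 in BMDM), and that of 8 blood-derived macrophage markers was lower in MG in all 23 (120.5 to 10090 in MG, 3612 to 37580 in BMDM), so that the markers ran in the direction of the labels, with some RNA of the other population's markers in each. These are bulk libraries of sorted cells, in which fewer cells of a type and less RNA per cell cannot be told apart. Lars2 was high and Malat1 low in recurrent libraries of both populations. Lars2 ran from 3162 to 38092 CPM in recurrent MG of IR and IR+BLZ945 mice. The part of such library differences in the results below was not tested. An alternative fit adds each library's Malat1 level less its Lars2 level, called the Malat1-Lars2 term. That term goes with recurrence itself, so where a recurrence call is lost with it, library and stage cannot be told apart.

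The genes lie on 7 chromosomes of mm10 (GENCODE vM21). Mmp2 spans chromosome 8 from 92827291 to 92853420 and Mmp15 the same chromosome from 95352268 to 95375080. Mmp13 (7272514 to 7283331) and Mmp12 (7344381 to 7369499) are neighbours in the metalloproteinase cluster of chromosome 9. Mmp14 lies on chromosome 14 (54431612 to 54445364), Mmp9 on chromosome 2 (164940780 to 164955850), Timp2 on chromosome 11 (118301069 to 118355740, minus strand) and Timp1 on X (20870166 to 20874735). Mmp19 (128790910 to 128800824) and Timp3 (86300372 to 86349506) are both on chromosome 10. Whether counting used strand was not given in the sources used here. Reads therefore cannot be assigned with certainty where exons overlap a gene on the other strand. Timp3 shares 1733 exon bases with Syn3 and Mmp19 shares 789 with Tmem198b, Mmp12 shares 157 with Mmp1b, and Timp1 lies inside Syn1 with 0 shared exon bases.

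Promoter sequences are shown for the 4 members that rose in MG from 5 days to recurrence after BLZ945, Mmp12, Mmp13, Mmp15 and Timp1. They are from RefSeq (GRCm38.p6), 250 bases before to 50 after the annotated start, written 5′ to 3′ on the gene's strand, which is plus in all 4. Capitals mark matches to the AP-1 motif (TGAGTCA or its complement on the other strand) and to the TATA box (TATAAA, either strand). Of the 2 RefSeq starts of Mmp12 the downstream one is printed, at chr9:7347124-7347423, followed by Mmp13 at chr9:7272264-7272563, Mmp15 at chr8:95352046-95352345 and Timp1 at chrX:20869916-20870215.
Mmp12: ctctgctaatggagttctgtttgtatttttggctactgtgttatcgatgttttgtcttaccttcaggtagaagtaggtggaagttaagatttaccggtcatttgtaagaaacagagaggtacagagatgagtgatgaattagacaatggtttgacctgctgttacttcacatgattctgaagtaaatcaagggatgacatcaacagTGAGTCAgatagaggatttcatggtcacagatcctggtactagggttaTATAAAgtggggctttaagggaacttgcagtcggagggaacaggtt
Mmp13: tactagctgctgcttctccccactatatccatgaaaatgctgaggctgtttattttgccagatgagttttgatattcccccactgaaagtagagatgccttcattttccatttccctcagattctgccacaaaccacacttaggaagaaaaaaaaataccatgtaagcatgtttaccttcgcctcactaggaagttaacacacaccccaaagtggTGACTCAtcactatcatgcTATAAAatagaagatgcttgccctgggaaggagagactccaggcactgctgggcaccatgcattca
Mmp15: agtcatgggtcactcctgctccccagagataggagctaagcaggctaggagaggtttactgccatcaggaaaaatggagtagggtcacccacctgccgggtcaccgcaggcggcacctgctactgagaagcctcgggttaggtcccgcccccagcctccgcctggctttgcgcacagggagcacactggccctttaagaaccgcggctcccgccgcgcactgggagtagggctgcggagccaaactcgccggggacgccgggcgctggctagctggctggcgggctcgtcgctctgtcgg
Timp1: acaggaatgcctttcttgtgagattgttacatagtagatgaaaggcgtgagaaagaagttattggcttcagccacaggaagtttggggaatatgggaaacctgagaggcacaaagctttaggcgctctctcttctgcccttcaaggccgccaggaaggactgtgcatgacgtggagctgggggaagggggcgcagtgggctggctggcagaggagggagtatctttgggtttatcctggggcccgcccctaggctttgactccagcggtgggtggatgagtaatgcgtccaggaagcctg
The neighbours Mmp12 and Mmp13 each held 1 AP-1 match, starting 44 and 35 bases upstream of the start site (-44 and -35), and 1 TATA match (5 and -16). Mmp15 and Timp1 held neither and had a GC content of 66% and 55%, against 40.7% and 43.7% for Mmp12 and Mmp13. AP-1 matches are in 5.2% and TATA matches in 13.6% of the 32851 mouse promoters of that table, on either strand, and GC boxes (GGGCGG), of which Mmp15 and Timp1 each held 1, in 35.7%. Promoters of Mmp14, Timp2 and Timp3 and the upstream start of Mmp12 held no AP-1 or TATA match in the same window. Only exact letters were searched, near matches were not, and a match is a description of the letters only.

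Per kilobase of exon, Timp2 was the most abundant member in vehicle tumours in both populations, at 328 ± 80.1 CPM per kb in MG and 130.4 ± 32.3 in BMDM (mean ± SD, n = 4). In BMDM Mmp14 came next at 45.6 ± 12.4 CPM per kb, followed by Mmp2 at 21.6 ± 5.30 and Mmp9 at 14.4 ± 15.7. In MG Mmp2 came next at 24.0 ± 8.33, followed by Mmp12 at 7.67 ± 5.40 and Mmp14 at 5.24 ± 0.948. RNA of the inhibitor and the 2 enzymes of the Mmp2 activation complex was found in both populations in vehicle tumours, with that of the inhibitor most abundant per length. Protein was not measured. Timp1, Timp3, Mmp13, Mmp15 and Mmp9 in MG averaged under 1 CPM per kb each, between 0.104 for Timp3 and 0.597 for Mmp13.

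**Figure D1:**
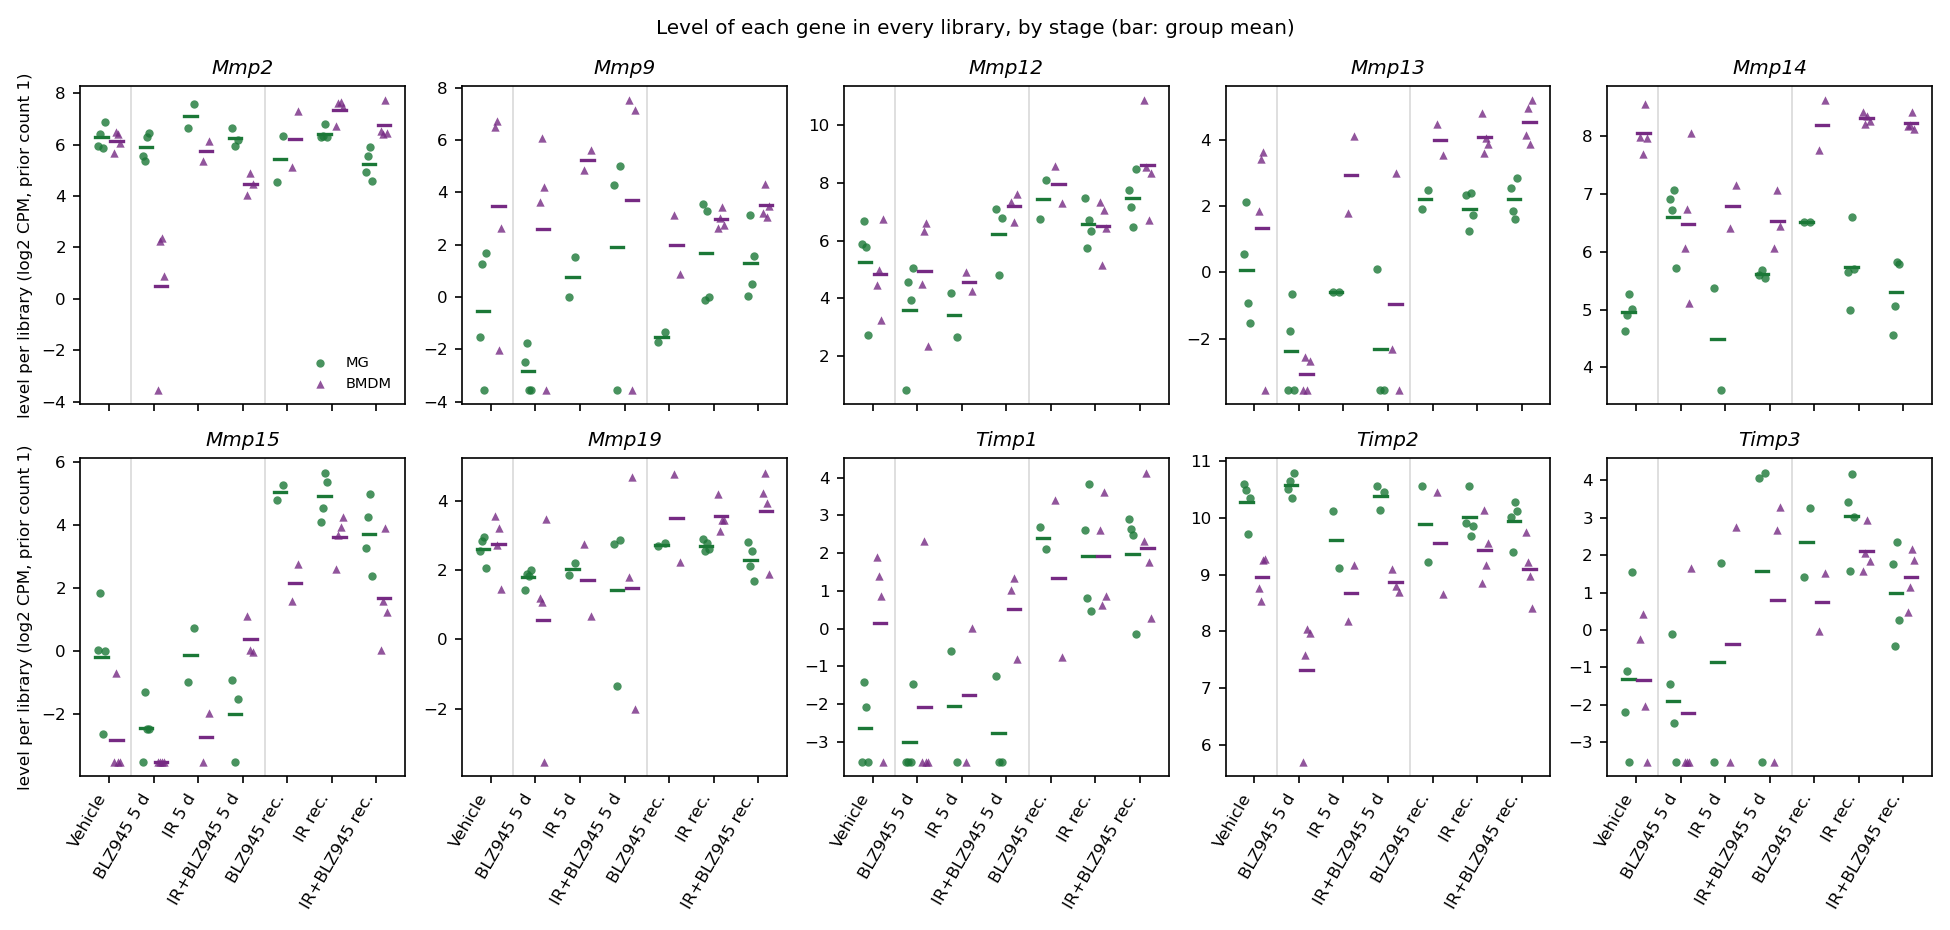
Level of each of the 10 genes in every library (y axis, log2 CPM with a prior count of 1) by stage (x axis), with MG as green circles, BMDM as purple triangles and the group mean as a bar. Mmp15 and Timp1 in MG are higher in all 10 recurrent libraries than in any of the 13 vehicle and 5-day libraries, Mmp2 in BMDM is lowest at 5 days of BLZ945, and the points at -3.53 are libraries with 0 counts.

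Between the populations, the most regular differences within mice were those of Timp2 and Mmp14, followed by Mmp9 (lower in MG in 20 mice) and Mmp15 (higher in 19). Timp2 was higher in MG than in BMDM of the same mouse in 22 of 23 mice, and Mmp14 was lower in MG in 21 of 23. A member was called where its Benjamini-Hochberg adjusted p, over all genes of a comparison, was at most 0.05 in edgeR's quasi-likelihood test. By that rule 12 of 70 tests of the members over the 7 stages passed, 6 higher and 6 lower in MG. In vehicle tumours 2 of the 10 members were higher in MG (Timp2 and Mmp15), where 3.84% of all 15901 genes were called higher, and 2 were lower (Mmp14 and Mmp9), where 5.3% were called lower.
After 5 days of BLZ945, 2 were higher in MG (Mmp2 and Timp2, with 11.6% of all genes) and 1 lower (Mmp9, with 10.3%). The 1 lower of 10 is a share near the background. In 5-day IR tumours 1 was lower (Mmp14, 4.13%), and Mmp9 as well with the mouse as a replicate block, and with IR+BLZ945 at 5 days 2 were higher (Mmp2 and Timp2, 5.68%). In recurrence 1 was lower after IR (1.36%) and 1 after IR+BLZ945 (2.77%), both times Mmp14. After BLZ945 recurrence 0 members passed by edgeR, 2 had an unadjusted p under 0.05 and DESeq2 called 0, where 0.0818% of all genes were called by edgeR in either direction. Here and below, every such share is of genes called by edgeR at the adjusted p. It is no background for members counted at an unadjusted p or by DESeq2, for which shares of all genes are not given.

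**Figure D2:**
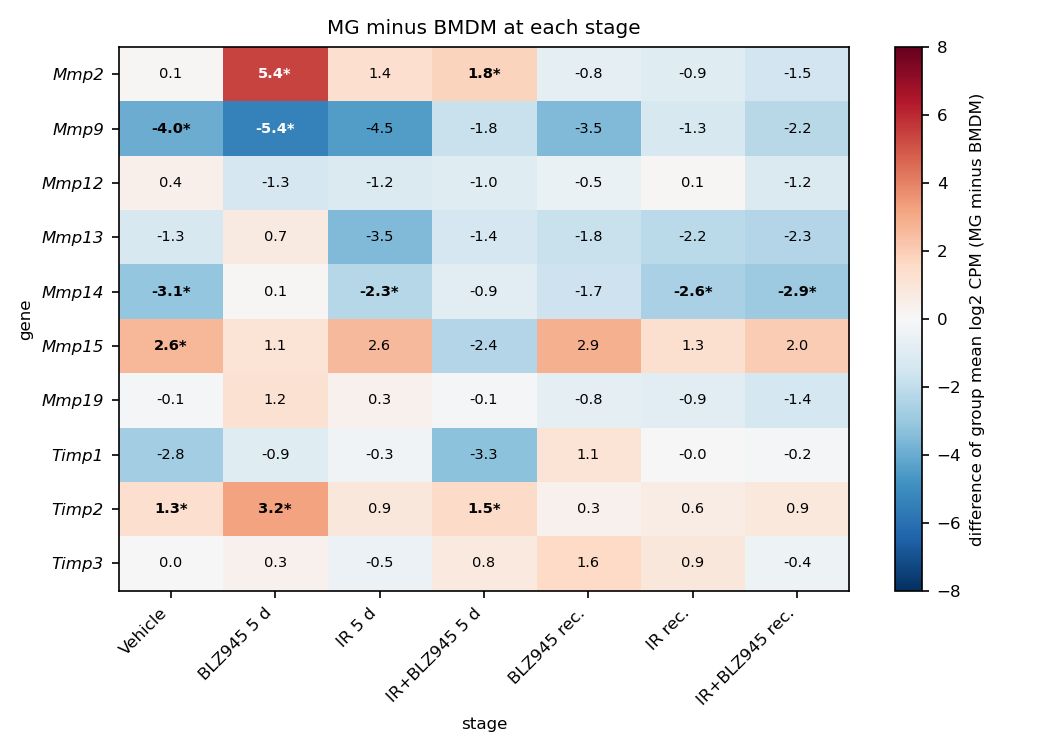
Difference of group mean log2 CPM, MG minus BMDM, for each gene (rows) at each stage (columns), with red for higher in MG, blue for lower in MG and an asterisk on the 12 calls. Mmp14 is blue at all 7 stages except for a value near 0 at 5 days of BLZ945, and Timp2 is red at all 7.

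Against vehicle, the calls in MG were all rises in recurrent tumours, and those in BMDM were 2 falls at 5 days of BLZ945 and 1 rise in recurrence after IR. In MG 7 of 60 tests passed. After BLZ945 recurrence 3 members rose (Mmp14, Mmp15 and Timp1), where 2.97% of the 14534 genes tested were called higher. After IR (4.2%) and IR+BLZ945 (2.04%) recurrence 2 rose each time, Mmp15 and Timp1. At 5 days 0 members passed by edgeR in MG. For BLZ945 4 members had an unadjusted p under 0.05 and DESeq2 called 2 (0.303% of genes called by edgeR in either direction), for IR 1 and 0 (1.99%), and for IR+BLZ945 2 and 2 (13.4%).
In BMDM 3 of 60 tests passed: Mmp2 and Mmp13 fell at 5 days of BLZ945 (3.56% of 14568 genes called lower) and Mmp15 rose in recurrence after IR (0.844% called higher). In the other 4 BMDM comparisons with vehicle 0 passed by edgeR. Unadjusted p-values were under 0.05 for 1 member at 5 days of IR (1.07% of genes called by edgeR at the adjusted p in either direction), 4 at 5 days of IR+BLZ945 (0.57%), 2 in BLZ945 recurrence (0%) and 2 in IR+BLZ945 recurrence (0.0275%), and DESeq2 called 0, 0, 1 and 2. The thresholds differ, so these counts cannot be read against those shares.

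Compared with 5 days of the same treatment, recurrent MG showed 8 rises in 30 tests: 4 after BLZ945 (6.32% of genes called higher), 1 after IR (8.13%) and 3 after IR+BLZ945 (11.5%). Recurrent BMDM showed 5 rises in 30 tests: 4 after BLZ945 (5.17%) and 1 after IR (7.06%). The single rise after IR is in both populations a share near the background. After IR+BLZ945 0 members passed in BMDM by edgeR (3.69% of genes called in either direction), with 5 at an unadjusted p under 0.05 and 2 called by DESeq2.
The response itself differed between the populations in 2 of 60 tests, Mmp2 and Mmp14 at 5 days of BLZ945, both with the larger value in MG (1.29% of 15901 genes called higher). At the other 5 stages 0 passed by edgeR. Unadjusted p-values were under 0.05 for 0 members at 5 days of IR (0.0755% of genes called in either direction), 3 at 5 days of IR+BLZ945 (0.358%), 0 in BLZ945 recurrence (0%), 2 in IR recurrence (0.0189%) and 1 in IR+BLZ945 recurrence (0%), and DESeq2 called 2, both at 5 days of IR+BLZ945. With the mouse as a replicate block the Mmp15 response at that stage passed as well (-6.20, adjusted p = 0.0213). These comparisons share their vehicle or 5-day libraries, so that their calls are not independent of each other.

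**Figure D3:**
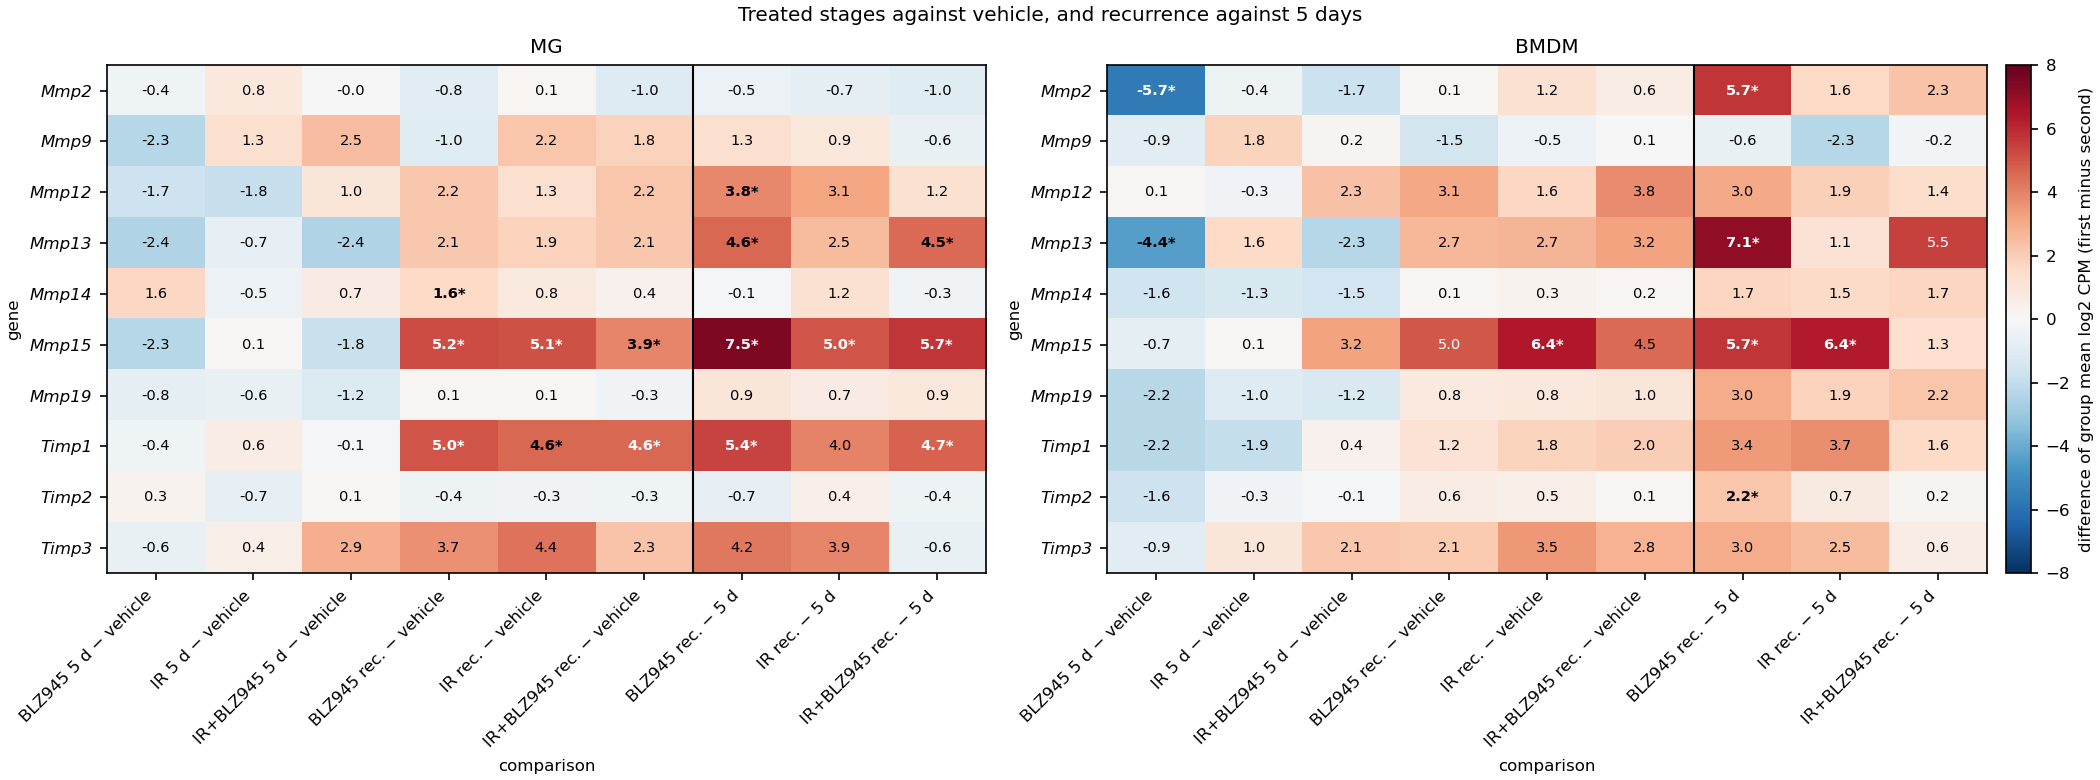
Difference of group mean log2 CPM for each gene (rows) in MG (left) and BMDM (right), for 6 stages against vehicle and, right of the line, recurrence against 5 days for 3 treatments (columns), with red for a rise, blue for a fall and an asterisk on each of the 23 calls. The row of Mmp15 is red in the 3 recurrent columns of both panels, and the blue cell of Mmp2 in the first BMDM column has no counterpart in MG.

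Mmp2, the gelatinase that degrades basement membrane collagen, passed no test against vehicle in MG and fell in BMDM at 5 days of BLZ945. In vehicle tumours its level was 61.1, 86.1, 57.8 and 118 CPM in MG and 50.6, 89.9, 84.4 and 66.8 CPM in BMDM, and the 2 populations overlapped. After 5 days of BLZ945 it was 47.0, 40.8, 78.7 and 86.8 CPM in MG. These overlapped vehicle, although mice 122 and 123 (47.0 and 40.8 CPM) lay below every vehicle library. In BMDM it was 0, 4.67, 5.13 and 1.78 CPM, all below every vehicle library. The log2 fold change in BMDM was -4.63 ± 0.68 (± SE here and below, adjusted p = 8.19e-04) and the call was kept when any library was left out and under every other setting tried. The fall in BMDM exceeded the change in MG by 4.29 ± 0.75 on the log2 scale (adjusted p = 0.00141), and MG stood above BMDM at that stage by 4.44 ± 0.59 (adjusted p = 3.35e-07).
With IR+BLZ945 for 5 days BMDM stood at 16.4, 29.8 and 21.8 CPM, below all 4 vehicle libraries and above all 4 BLZ945 libraries, a difference from vehicle of -1.64 ± 0.66 (adjusted p = 0.233). MG of the same mice stood at 100.2, 61.2 and 71.6 CPM, higher than BMDM by 1.78 ± 0.60 (adjusted p = 0.0421). That call is marginal, since it was lost without any of 10 mice (41, 65696, 65971, 67169, 67537, 67543, 68344, 68345, 68346 or 78), with adjusted p-values up to 0.187, and without the low-count filter (adjusted p = 0.0596). After IR alone, 5-day BMDM stood at 40.9 and 71.3 CPM, overlapping vehicle.
In recurrent BMDM Mmp2 was back at 35.2 and 160 CPM after BLZ945, a rise over 5 days of 5.07 ± 0.74 (adjusted p = 6.25e-04) kept under every setting and left-out library. Recurrent BMDM held 105 to 202 CPM after IR and 84.9, 86.4, 92.2 and 211 CPM after IR+BLZ945, where mouse 67947 lies apart from the other 3. Recurrent MG held 23.2 to 110.2 CPM over the 3 treatments, with 0 calls against vehicle. The genes most like Mmp2 over the 46 libraries were Etv5 (Pearson r = 0.86), Mgat5 (0.85) and Lhfpl2 (0.84), values that rest mainly on BMDM (r = 0.89 for Etv5 within BMDM and 0.55 within MG).

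Marker levels of other macrophage types in BMDM also differed where Mmp2 fell. Summed CPM of the microglia markers was 966 to 3039 in the 4 BMDM libraries at 5 days of BLZ945 against 5302 to 10720 in vehicle, that of 8 dendritic cell markers was 2537 to 4100 against 843.6 to 1552, and that of 8 border-associated macrophage markers was 88.95 to 580.5 against 368.1 to 1197. BMDM of 2 of the 4 mice, 122 and 124, are among the doubted libraries, and the call was kept without them. The blood-derived macrophage markers summed to 27310 to 37580 CPM in BMDM at 5 days of BLZ945 and 11300 to 16850 in vehicle. Dendritic cell markers were also high in BMDM at 5 days of IR (2408 and 2463 CPM), where Mmp2 was 40.9 and 71.3 CPM and overlapped vehicle. At 5 days of IR+BLZ945 they were 3163 to 4035 CPM, with Mmp2 at 16.4 to 29.8 CPM. The part of these cell types in the fall of Mmp2 was not tested.

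Mmp9, the other gelatinase, which neutrophils and activated macrophages store or induce, was mostly higher in BMDM, with large differences between mice. It was lower in MG than in BMDM of the same mouse in 20 of 23 mice. In vehicle BMDM it was 90.7 and 107 CPM in mice 41 and 78 but 0.158 and 6.12 CPM in 65966 and 65967. Vehicle MG held 0.264, 2.29, 0 and 3.13 CPM, so that the groups overlapped. The difference, MG minus BMDM, was -5.16 ± 1.50 (adjusted p = 0.0212). It was lost without mouse 41 (adjusted p = 0.153) or 78 (0.109), with the number-style term, which codes whether a mouse has a short or a long number (0.281) and without the low-count filter (0.0521).
In 5-day BLZ945 tumours BMDM held 12.3, 66.9, 18.2 and 0 CPM and MG 0.0937, 0.208, 0 and 0 CPM. With 3 counts in all of MG against 1089 in BMDM, the ratio of pooled CPM was 336.4 in favour of BMDM (exact 95% counting interval 114.8 to 1634), and the adjusted p was 0.00172. This call was kept under every setting and every mouse left out, although the BMDM library of 65975 held 0 counts. In 5-day IR+BLZ945 tumours mice 65696 and 67537 held 182 and 142 CPM in BMDM and 19.6 and 31.9 CPM in MG, while 65971 held 0 in both.
At 5 days of IR MG held 0.912 and 2.80 CPM and BMDM 28.6 and 49.6 CPM, and with the mouse as a replicate block this difference passed (-4.53, adjusted p = 0.0225). Recurrent BMDM held 1.78 to 19.9 CPM over 10 mice, with 0 calls against vehicle or 5 days. Neutrophils are meant to be removed by the Ly6G- gate. The summed CPM of 8 neutrophil markers was 464.8 to 2310 in the 8 BMDM libraries of mice 41, 78, 65967, 122, 123, 124, 65696 and 67537, all with at least 6.12 CPM of Mmp9, and 0.357, 13.7 and 27.8 in the 3 with the least Mmp9 (65975, 65971 and 65966). The 5-day IR libraries had 7.57 and 3.33 CPM of these markers beside 28.6 and 49.6 CPM of Mmp9, and the 10 recurrent BMDM libraries 1.302 to 37.55 CPM beside 1.78 to 19.9 CPM. The part of neutrophils in the Mmp9 values was not tested. The most similar genes were Pstpip2 (r = 0.66), Ccl17 (0.65) and Mrc1 (0.65).

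Mmp12, macrophage elastase, and Mmp13, an interstitial collagenase, had their highest stage medians in a recurrent group and their lowest in a 5-day group, in both populations. Mmp12 in MG was 58.2, 102, 55.1 and 6.52 CPM in vehicle, 1.69, 23.5, 15.0 and 33.3 CPM at 5 days of BLZ945 and 107 and 276 CPM in BLZ945 recurrence. Both recurrent libraries lay above all 4 of the 5-day libraries, a rise of 3.40 ± 0.86 (adjusted p = 0.0166). The call was lost without MG of 70696 (2.48, adjusted p = 0.163) or 124 (0.0539), with the Malat1-Lars2 term (0.244) and with the number-style term (0.0583). After IR the same contrast gave 3.14 ± 1.04 (adjusted p = 0.0539), without overlap, and after IR+BLZ945 1.02 ± 0.79 (adjusted p = 0.357), where the 5-day libraries of 65696 and 67537 already held 138 and 110 CPM.
BMDM levels of Mmp12 were 9.39 to 108 CPM in vehicle and 87.3, 133, 161 and 35.2 CPM in IR recurrence. They were highest after IR+BLZ945 recurrence, at 1865, 380, 106 and 329 CPM, where 0 members passed by edgeR. That difference from vehicle was 4.02 ± 0.92 with an adjusted p of 0.110, while DESeq2 (adjusted p = 3.53e-04) and 1 fit over all libraries (0.0355) called it. The most similar gene was S100a1 (r = 0.74).

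Mmp13 had 0 calls between the populations by edgeR over the 7 stages (adjusted p from 0.115 to 1), with 3 unadjusted p-values under 0.05, and DESeq2 called 1, at 5 days of IR (adjusted p = 0.0381). It was lower in MG in 17 of 23 mice. Over the vehicle and 5-day libraries the median was 0.446 CPM in MG and 0.115 CPM in BMDM, and over the recurrent ones 4.30 and 16.9 CPM. In MG it was 1.38, 4.29, 0.446 and 0.261 CPM in vehicle, at most 0.547 CPM at 5 days of BLZ945, and 3.67 and 5.57 CPM in BLZ945 recurrence, a rise over 5 days of 4.54 ± 1.17 (adjusted p = 0.0188). This was lost without MG of 122 (adjusted p = 0.0623) or 70696 (0.0822) and with the Malat1-Lars2 term (0.494). After IR+BLZ945 the 5-day libraries held 0.991, 0 and 0 CPM and the recurrent ones 5.73, 3.52, 2.95 and 7.11 CPM, a rise of 3.55 ± 1.18 (adjusted p = 0.0295). It was lost without MG of 65971 (adjusted p = 0.0544), 67537 (0.0828) or 68362 (0.0580), in 1 fit over all libraries (0.0527), without the 6 doubted libraries (0.0615) and with the Malat1-Lars2 term (0.770).
All 10 recurrent MG libraries held 2.29 to 7.11 CPM, and 78 of vehicle was the only other MG library within that range. In BMDM Mmp13 was 3.498, 10.6, 12.4 and 0 CPM in vehicle and 0, 0.0849, 0 and 0.0714 CPM at 5 days of BLZ945. Over the group these were 2 counts against 396 in vehicle, a 147-fold lower pooled CPM (exact 95% counting interval 40.48 to 1220, adjusted p = 0.0156), although the groups overlapped through the vehicle mouse 65967 at 0. Without the 6 doubted libraries the call was lost (adjusted p = 0.125).
In BLZ945 recurrence BMDM held 22.3 and 11.5 CPM, 359 counts against 2 at 5 days (ratio 373.7, interval 102.7 to 3097, adjusted p = 0.00776). That call was lost without 67668 (adjusted p = 0.0523), without the doubted libraries (0.0537) and with the Malat1-Lars2 term (0.312). All 10 recurrent BMDM libraries held 11.5 to 36.3 CPM, against 0 to 17.3 CPM in the 13 others. The most similar genes were D4Ertd22e (r = 0.80), Cdv3 (0.79) and Ppp4r2 (0.78).

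Mmp14, the membrane-type enzyme that activates the Mmp2 proenzyme, was called lower in MG at 4 of the 7 stages. In vehicle tumours it was 24.7, 29.8, 38.3 and 32.1 CPM in MG and 252, 206, 377 and 251 CPM in BMDM, and every BMDM library lay above every MG library. The difference was -3.12 ± 0.43 (adjusted p = 2.88e-06). It was -2.46 ± 0.42 in IR recurrence (adjusted p = 3.82e-04) and -2.83 ± 0.43 in IR+BLZ945 recurrence (adjusted p = 4.25e-05), and these 3 calls were kept under every setting and every mouse left out. After 5 days of IR it was -2.10 ± 0.59 (adjusted p = 0.0175), with 41.2 and 12.2 CPM in MG against 85.3 and 143 CPM in BMDM, and this was lost without mouse 65972 (-1.05, adjusted p = 0.524).
In 5-day BLZ945 tumours the populations met, at 120, 106, 134 and 52.3 CPM in MG and 66.5, 107, 34.4 and 264 CPM in BMDM. MG lay above all 4 vehicle libraries (1.79 ± 0.39, adjusted p = 0.0528, called by DESeq2), and BMDM lay lower with overlap through mouse 65975 (-1.18 ± 0.42, adjusted p = 0.0940). Neither change passed alone, but the difference between them did, at 2.92 ± 0.57 on the log2 scale (adjusted p = 0.00317), and it was kept under every setting and every mouse left out. As with Mmp2, BMDM at this stage had lower summed levels of microglia markers and higher ones of dendritic cell markers than in vehicle. This held also for BMDM of mouse 65975 (3039 and 3068 CPM), where Mmp14 at 264 CPM lay within the vehicle range. The part of these cell types in the Mmp14 values was not tested.
In BLZ945 recurrence MG held 91.5 and 91.2 CPM, a rise over vehicle of 1.61 ± 0.45 (adjusted p = 0.0499). The value sits at the threshold: it passed only without MG of 65698, 65971, 65972 or 65975 among 23 libraries left out in turn, with adjusted p-values up to 0.227 otherwise. It was also lost in 1 fit over all libraries (adjusted p = 0.0898), with the Malat1-Lars2 term (0.0501) and with the number-style term (0.0671). The blood-derived macrophage markers summed to 10090 CPM in MG of 67668 and 1924 in MG of 70696, against 661.3 to 3749 in vehicle MG. Microglia markers summed to 11950 and 6902 CPM, against 15240 to 32940. The part of BMDM RNA in the Mmp14 values of these MG libraries was not tested. Recurrent BMDM held 217 to 392 CPM over 10 mice, and the 9 BMDM libraries of the 5-day groups held 34.4 to 264 CPM. The rise from 5 days to recurrence in BMDM was 1.38 ± 0.48 after BLZ945 (adjusted p = 0.0932), 1.45 ± 0.54 after IR (0.0790) and 1.63 ± 0.47 after IR+BLZ945 (0.0526), without overlap in the latter 2. Over the 46 libraries Mmp14 was most like Cybb (r = 0.89), Hgf (0.82) and Sgsh (0.79).

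Mmp15, the other membrane-type enzyme among the members, rose in MG in all 3 recurrent groups, against vehicle and against 5 days alike. In MG it was 0.922, 3.43, 0.0743 and 0.912 CPM in vehicle and 0 to 1.56 CPM in the 9 libraries of the 5-day groups. It rose to 27.6 and 38.5 CPM in BLZ945 recurrence, to 16.9, 22.9, 49.99 and 40.7 CPM in IR recurrence and to 9.44, 18.8, 30.999 and 5.08 CPM in IR+BLZ945 recurrence. All 10 recurrent MG libraries (5.08 to 49.99 CPM) lay above the 13 others (0 to 3.43 CPM).
Against vehicle the rises were 4.73 ± 0.83 (adjusted p = 0.00395), 4.77 ± 0.78 (0.00162) and 3.61 ± 0.75 (0.0135). The BLZ945 and IR calls were kept under every setting and left-out library. The IR+BLZ945 call was lost without MG of 67947 (adjusted p = 0.0566), 41 (0.0592) or 65967 (0.0630) and with the Malat1-Lars2 term (0.205). Against 5 days the rises in MG were 7.98 ± 1.03 after BLZ945 (adjusted p = 1.39e-04), 5.14 ± 1.09 after IR (0.00510) and 5.67 ± 1.03 after IR+BLZ945 (0.00131). With the Malat1-Lars2 term the IR (adjusted p = 0.278) and IR+BLZ945 (0.154) calls were lost, and the IR call also without MG of 65698 (0.0792), while the BLZ945 call was kept throughout.
In BMDM Mmp15 was at 0 in 3 of 4 vehicle libraries and 0.518 CPM in the other, and at 0 counts in all 4 libraries at 5 days of BLZ945. Recurrent BMDM held 2.90 and 6.60 CPM after BLZ945, 5.91, 12.6, 15.0 and 18.7 CPM after IR and 0.935, 2.88, 14.7 and 2.27 CPM after IR+BLZ945. The rise over vehicle passed after IR (6.52 ± 1.37, adjusted p = 0.0233). It was lost without BMDM of 41 (adjusted p = 0.0707), 65966 (0.0570), 68344 (0.0556), 68345 (0.0675) or 68346 (0.0716) and with the Malat1-Lars2 term (0.573). After BLZ945 and IR+BLZ945 the differences from vehicle were 5.08 ± 1.37 (adjusted p = 0.308) and 5.21 ± 1.29 (adjusted p = 0.150), both called by DESeq2.
Against 5 days BMDM of BLZ945 recurrence were at least 74.3-fold higher, 107 counts taking 3 counts for the whole group as the floor (adjusted p = 0.00805), and the Malat1-Lars2 term ended the call (0.0820). After IR they had 676 counts against 2, a ratio of 143.4 (exact 95% counting interval 39.54 to 1186, adjusted p = 0.0273). This was lost without BMDM of 65698 (adjusted p = 0.208), 65972 (0.0517), 68345 (0.0501) or 68346 (0.0539), without the doubted libraries (0.0897) and with the Malat1-Lars2 term (0.811). Within mice Mmp15 was higher in MG in 19 of 23, a difference that passed in vehicle (3.15 ± 1.02, adjusted p = 0.0434). That was lost without any of 10 mice (41, 65966, 65967, 67537, 67543, 67668, 68344, 68345, 68346 or 70696), with adjusted p-values up to 0.163, and with the Malat1-Lars2 term (0.448).

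Markers of glioma cells and oligodendrocyte precursors were also higher than in vehicle in most of the recurrent libraries. The summed CPM of 8 such markers was 55.27 to 96.12 in vehicle MG and 78.44 to 702.3 in recurrent MG, and 6.233 to 11.97 in vehicle BMDM and 41.91 to 258.4 in recurrent BMDM. In MG mouse 68362 had the lowest Mmp15 (5.08 CPM) and the lowest marker sum (78.44) of the recurrent libraries. The vehicle library of 65966 had a higher sum (94.36) with 0.0743 CPM of Mmp15. The part of RNA from such cells in the Mmp15 values was not tested. The genes most like Mmp15 were Plekhb1 (r = 0.83), Ppp1r37 (0.81) and Bag6 (0.80).

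**Figure D4:**
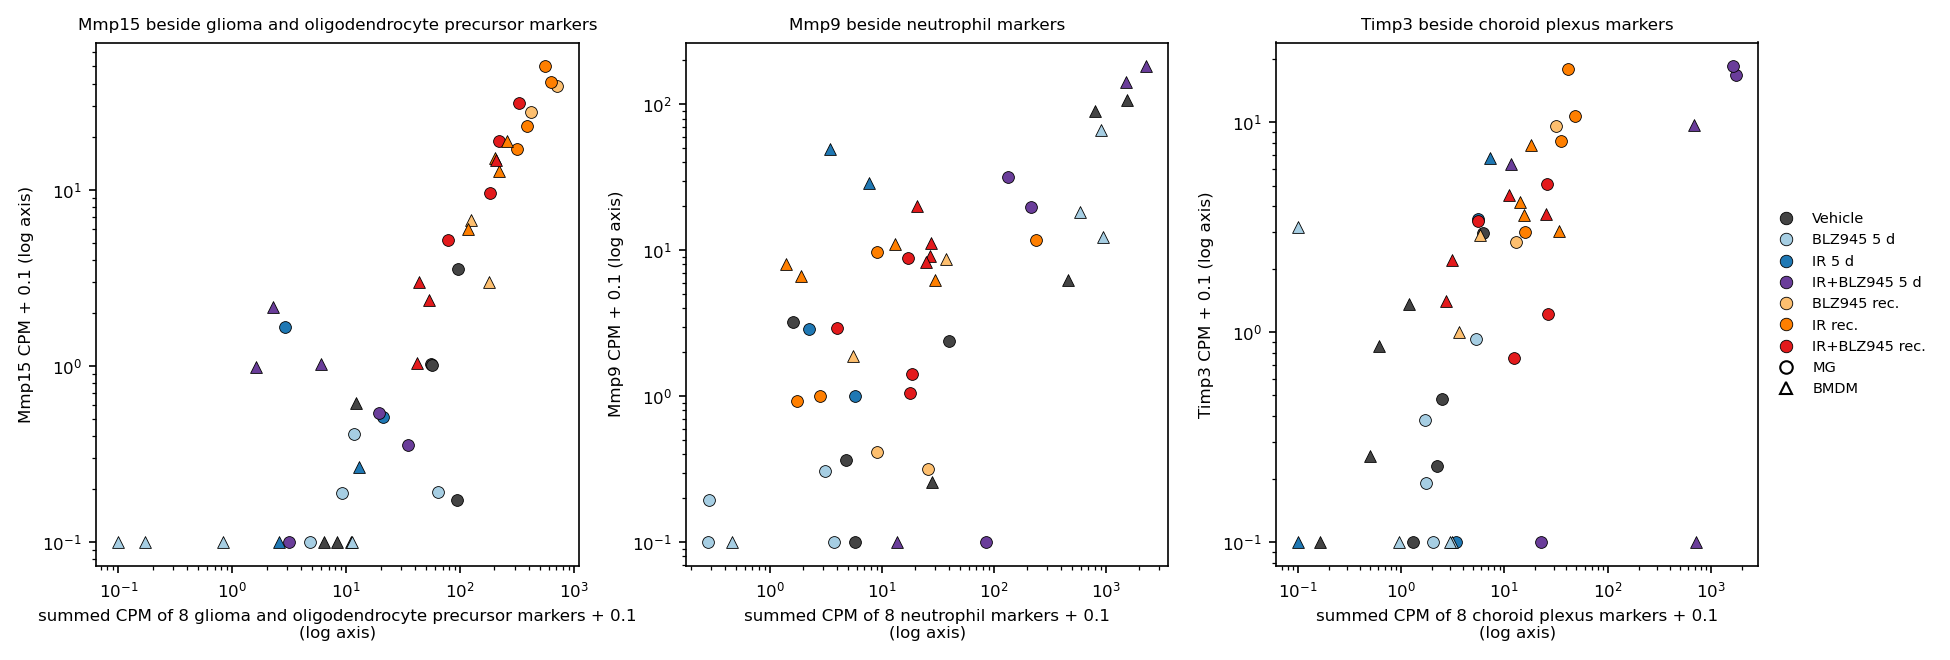
CPM of Mmp15, Mmp9 and Timp3 in each of the 46 libraries (y axes, log scale after adding 0.1) beside the summed CPM of 8 markers of glioma and oligodendrocyte precursor cells, neutrophils and choroid plexus (x axes, log scale after adding 0.1), coloured by stage, with circles for MG and triangles for BMDM. In MG the recurrent libraries lie above all others in Mmp15 but overlap them in the glioma marker sum (from 78.44 CPM, others up to 96.12). In BMDM they lie above all others in that sum but overlap them in Mmp15 (from 0.935 CPM, others up to 2.06). In the right-hand panel MG of 65696 and 67537 stand at the right with Timp3 at 16.6 and 18.4 CPM.

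Mmp19, a secreted enzyme with broad substrates, had 0 calls by edgeR in the 31 comparisons. It was 5.73, 7.15, 7.73 and 4.11 CPM in vehicle MG and 11.8, 6.50, 9.23 and 2.67 CPM in vehicle BMDM, which overlapped. Recurrent MG held 3.15 to 7.36 CPM and recurrent BMDM 3.63 to 28.0 CPM. In MG the stage medians ran from 3.55 CPM at 5 days of BLZ945 to 6.61 CPM at 5 days of IR+BLZ945, and each stage overlapped the next in that order. The most similar gene was Stt3b (r = 0.77).

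Timp1, the inducible inhibitor that blocks many metalloproteinases but membrane types only weakly, was near 0 in MG until recurrence. Vehicle MG held 0, 0.286, 0.149 and 0 CPM, 8 of the 13 vehicle and 5-day MG libraries had 0 counts, and the highest of them held 0.580 CPM. Recurrent MG held 6.38 and 4.23 CPM after BLZ945, 6.00, 1.66, 14.1 and 1.28 CPM after IR and 7.42, 6.12, 5.49 and 0.813 CPM after IR+BLZ945. The recurrent libraries (0.813 to 14.1 CPM) did not overlap the 13 others.
Rises over vehicle were 5.63 ± 1.35 after BLZ945 (adjusted p = 0.0220), 5.83 ± 1.28 after IR (0.00975) and 5.48 ± 1.27 after IR+BLZ945 (0.0209). All 3 calls were lost when both populations were fitted together (adjusted p = 0.104, 0.0633 and 0.0861), with the Malat1-Lars2 term (0.0882, 0.0632 and 0.273) and with the number-style term (0.123, 0.109 and 0.0860). The BLZ945 call was lost without MG of 67668 (adjusted p = 0.0714), 70696 (0.0969), 41 (0.0924), 65966 (0.0594) or 65967 (0.0751), and the IR call without 41 (0.0586) or 68345 (0.0599). The IR+BLZ945 call was lost without 67543 (adjusted p = 0.0509), 67947 (0.0576), 41 (0.0691), 65966 (0.0523) or 65967 (0.0826). Direction and size were kept in each, between 4.80 and 6.66 on the log2 scale.
Against 5 days BLZ945 recurrence had 113 counts in MG against 3, a pooled ratio of 72.1 (exact 95% counting interval 24.04 to 354.7, adjusted p = 0.0106), and IR+BLZ945 recurrence 179 against 3, a ratio of 38.9 (interval 13.1 to 190.4, adjusted p = 0.0161). The BLZ945 call was lost with the Malat1-Lars2 (adjusted p = 0.305) and number-style (0.0838) terms. The IR+BLZ945 call was lost with the Malat1-Lars2 term (0.408), in 1 fit over all libraries (0.0507) and without MG of 67537 (0.0531).
BMDM already held 3.63, 2.53, 1.74 and 0 CPM of Timp1 in vehicle and 0.508 to 17.4 CPM in recurrence, with 0 calls by edgeR in any BMDM comparison. The response in MG was not shown to differ from that in BMDM, since the difference between them in IR recurrence was 4.29 ± 2.02 on the log2 scale and did not pass. Timp1 was most like Srgn (r = 0.74), Ybx1 (0.74) and Ms4a6c (0.74).

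Timp2, which both docks the Mmp2 proenzyme on Mmp14 and inhibits it, was called higher in MG at 3 of the 7 stages. In vehicle it was 1546, 1436, 837 and 1300 CPM in MG and 434, 369, 611 and 618 CPM in BMDM, without overlap, a difference of 1.33 ± 0.38 (adjusted p = 0.0190). The call was lost without mouse 41 (adjusted p = 0.152) or 78 (0.142) and with the Malat1-Lars2 term (0.318).
After 5 days of BLZ945 MG held 1452, 1601, 1305 and 1771 CPM and BMDM 52.1, 193, 264 and 251 CPM, the widest difference of the 7 stages at 3.01 ± 0.41 (adjusted p = 4.68e-07), kept under every setting and every mouse left out. All 4 BMDM libraries lay below all 4 of vehicle, with a fold change of -1.40 ± 0.44 (adjusted p = 0.0652) that DESeq2 (0.0284) and 1 fit over all libraries (0.0159) called. The difference between the responses, 1.68 ± 0.54, had an adjusted p of 0.101. In 5-day IR+BLZ945 tumours MG held 1499, 1122 and 1400 CPM against 549, 444 and 411 CPM in BMDM (1.52 ± 0.44, adjusted p = 0.0194), lost without 65696 (0.0512), 65971 (0.0652) or 67537 (0.0994).
From 5 days to recurrence after BLZ945, BMDM rose to 1399 and 404 CPM (2.27 ± 0.51, adjusted p = 0.0122). This rests on mouse 67668, without which it was 1.09 (adjusted p = 0.514), and it was also lost with the Malat1-Lars2 (0.215) and number-style (0.126) terms. The single mouse with less Timp2 in MG than in BMDM was 65972 of 5-day IR (552 and 575 CPM). Over the 46 libraries Timp2 was most like Ctsd (r = 0.93), Trem2 (0.89) and Naglu (0.88), points that share the split between MG and BMDM.

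Timp3, the inhibitor that stays bound to the extracellular matrix, was near 0 in most vehicle and 5-day libraries and had 0 calls by edgeR in the 31 comparisons. Vehicle MG held 0.132, 0.381, 0 and 2.87 CPM and vehicle BMDM 0.763, 1.27, 0.158 and 0 CPM. At 5 days of IR+BLZ945 MG held 16.6, 0 and 18.4 CPM, and the difference from vehicle was 3.90 ± 1.32 with an adjusted p of 0.0534, called by DESeq2. The 2 high libraries, 65696 and 67537, had summed CPM of 8 choroid plexus markers of 1769 and 1645, and the third, 65971, had 22.3, against 1.19 to 6.13 in vehicle MG. BMDM of the same 3 mice had 722, 691 and 11.5 CPM of these markers with 0, 9.65 and 6.26 CPM of Timp3. The part of choroid plexus RNA was not tested.
Recurrent libraries all held Timp3, at 0.651 to 17.8 CPM in MG and 0.899 to 7.67 CPM in BMDM. The differences of recurrent MG from vehicle were 2.93 ± 1.38 after BLZ945 (adjusted p = 0.328), 3.66 ± 1.27 after IR (0.132) and 1.57 ± 1.22 after IR+BLZ945 (0.482). The summed CPM of 8 astrocyte markers was 260.1 to 637.8 in recurrent MG and 168.5 to 2600 in the 13 other MG libraries. Over all 46 libraries the genes most like Timp3 were Plekhb1 (r = 0.67), Kif5a (0.64) and Clu (0.63). Within MG these r values were 0.83, 0.85 and 0.95, and within BMDM 0.49, 0.46 and 0.21. Clu is itself among the 8 astrocyte markers, and the part of astrocyte RNA in the Timp3 values was not tested. Plekhb1 was also the gene most like Mmp15.

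Across the MG libraries several members varied together. Pearson r over 23 MG libraries was 0.87 for Mmp13 with Mmp15, 0.86 for Mmp15 with Timp1 and 0.78 for Mmp13 with Timp1, while Mmp14 with Mmp15 had -0.06 and Mmp2 with Mmp14 had -0.32. In BMDM Mmp2 with Mmp14 had 0.66 and Mmp13 with Mmp14 had 0.69. These libraries share their stages and their depth, and the values are descriptions. Mmp12 and Mmp13, neighbours on chromosome 9, both rose from 5 days to recurrence of BLZ945 in MG, as did Mmp15 and Timp1. The printed promoters of Mmp12 and Mmp13 hold exact AP-1 and TATA matches, and those of Mmp15 and Timp1 hold neither motif. The upstream start of Mmp12, not printed, holds neither as well.

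The members' median change in recurrent MG against vehicle was 1.61 with BLZ945, 1.21 with IR and 1.43 with IR+BLZ945 before recurrence, on the log2 scale, where the median of all 14534 genes lay at 0.00, -0.00 and -0.02. Of 18 other metalloproteinase and inhibitor genes, 11 were tested in MG and 2 rose in each recurrence, where 2.97%, 4.2% and 2.04% of all genes were called higher. Mmp16, another membrane-type enzyme, rose by 5.93 ± 1.09, 5.53 ± 1.02 and 4.24 ± 0.98 (adjusted p = 0.00497, 0.00297 and 0.0208). Timp4, the remaining TIMP, rose by 3.58 ± 0.94, 4.19 ± 0.88 and 3.18 ± 0.86 (adjusted p = 0.0371, 0.00751 and 0.0376). The median of those 11 genes was 1.23, 1.27 and 1.802. Calls of related genes, here and below, come from the main fit and were not tried under the other settings. The summed CPM of the glioma and oligodendrocyte precursor markers was 78.44 to 702.3 in recurrent MG and 55.27 to 96.12 in vehicle MG. The part of such RNA in the changes of related genes was not tested.

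Of 20 genes of plasminogen activation and metalloproteinase control, 19 were tested. In recurrent MG 4 rose and 1 fell after BLZ945, 4 rose after IR, and 3 rose and 1 fell after IR+BLZ945. The shares of all genes were the same 2.97%, 4.2% and 2.04% for rises, and for falls 0.557% after BLZ945 and 2.78% after IR+BLZ945. A2m, the broad plasma protease inhibitor alpha-2-macroglobulin, rose by 7.94 ± 0.98, 8.25 ± 0.95 and 6.61 ± 0.92 (adjusted p = 6.10e-04, 1.42e-04 and 0.00376). Plat, tissue plasminogen activator, rose by 4.71 ± 1.04, 5.25 ± 1.00 and 3.82 ± 0.95 (adjusted p = 0.0148, 0.00377 and 0.0285), and S100a10, a partner of annexin A2 in plasminogen binding, by 3.03 ± 0.66, 2.73 ± 0.60 and 3.18 ± 0.61 (adjusted p = 0.0138, 0.00947 and 0.00954). Serpinf1 fell after BLZ945 (-5.02 ± 0.99, adjusted p = 0.00742) and after IR+BLZ945 (-2.86 ± 0.64, adjusted p = 0.0187). The remaining rises were Cd44, the hyaluronan receptor, after BLZ945 (2.17 ± 0.53, adjusted p = 0.0240) and Lcn2, lipocalin-2, which binds Mmp9, after IR (4.72 ± 1.19, adjusted p = 0.0243). The medians of the 19 genes were 0.76, 0.30 and 0.11. In vehicle tumours Cd44 and S100a10 were lower in MG than in BMDM, and the part of BMDM RNA in their rises in MG was not tested.

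Between the populations in vehicle, the related genes included calls in both directions. Of all 15901 genes tested, 3.84% were called higher in MG and 5.3% lower. Of 14 other metalloproteinase and inhibitor genes tested 2 were lower in MG, the leukocyte membrane-type enzyme Mmp25 (-5.48 ± 1.00, adjusted p = 1.67e-04) and the stromelysin Mmp10 (-4.24 ± 1.18, adjusted p = 0.0169). Of the 19 regulators 5 were higher in MG, among them Serpine2 (2.35 ± 0.65), a protease inhibitor, Serpinf1 (3.41 ± 0.70), the metalloproteinase inducer Bsg (1.23 ± 0.25) and the clearance receptor Lrp1 (1.35 ± 0.38). The 5 lower were Cd44 (-3.30 ± 0.42), Thbs1 (-3.32 ± 0.81), S100a10 (-3.52 ± 0.72), the urokinase receptor Plaur (-1.98 ± 0.46) and Serpinb2 (-8.19 ± 1.96). Medians were -0.07 for the members, -0.32 for the 14 genes and 1.03 for the 19, against 0.09 for all genes.
In BMDM of 5-day BLZ945 tumours 2 of 12 other metalloproteinase genes fell (3.56% of all genes were called lower), Mmp10 (0 counts against 237 in vehicle) and Mmp11 (0 against 34), and 1 of 19 regulators, Plau, the urokinase gene (-3.49 ± 0.91, adjusted p = 0.0278). The 1 of 19 regulators is a share near the background. Plau rose again by recurrence (3.48 ± 0.99, adjusted p = 0.0375, with 5.17% of all genes called higher), as Mmp2 did. The members' median change at that stage was -1.10 in BMDM and -1.10 in MG, against -0.06 and 0.01 for all genes.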

How the data were processed

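RNA sequencing was read from 1 table of raw counts per gene symbol deposited by the authors for 46 libraries, whole numbers with no normalization. Per the labels' protocols, RNA came from sorted cells and libraries from a Smart-Seq kit without molecular identifiers, so counting intervals cover counting error only. The submitters' processing notes name STAR 2.5.0e, HTSeq, CASAVA 1.8, DESeq2 and mm10, with no roles, and neither annotation nor strand setting is given in the sources used here. Total counts were 3007379 to 16993474. Replicates are mice, and replicate pairs differed by a chi-square of at least 10.15 per degree of freedom, so no library was a duplicate.

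Tests were edgeR's quasi-likelihood tests, run in R 4.3.3 with edgeR 4.0.16 and limma 3.58.1, after TMM scaling and filterByExpr (minimum count 10, minimum total 15), with a robust fit. MG, BMDM and all 46 libraries were fitted separately, with 14534, 14568 and 15901 genes tested, biological coefficients of variation of 0.484, 0.651 and 0.589 and 16, 16 and 32 residual degrees of freedom. The procedure was also run on simulated data, with the same spread for every gene and changes placed only in well-counted genes. That run does not cover members near 0 counts. P-values were adjusted over all genes of each of 31 comparisons. CPM use TMM-scaled totals, and log2 CPM a prior count of 1. Where a group held 0 counts, a fold takes 3 counts for that group as the floor, and with 1 to 3 counts as the ratio of pooled CPM with an exact 95% counting interval.

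The 10 members, the related genes and the marker lists were chosen with earlier results of these data known. Fold changes are given for members that passed, and for others where stated. Genes most alike are the 3 of highest Pearson r over 46 libraries among genes with a mean log2 CPM of at least 3, leaving out predicted, clone-named, ribosomal protein, mitochondrial and pseudogene names. Alternatives were DESeq2 1.42.0, no low-count filter, RLE size factors, both populations in 1 fit, the mouse as a replicate block and each library or mouse left out. The data had been seen when 3 more were chosen, which left out the 6 doubted libraries or added the Malat1-Lars2 or the number-style term. The labels give MG and BMDM of each mouse the same number: the correlation of their deviations from the group means had a median of 0.25 over 23 mice (-0.04 to 0.65) and was over 0.1 in 19.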

Additional observations from a re-analysis of the deposited data

Results flagged for a closer look

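Of 79 sets of 4 replicate libraries examined over the members, 7 held a library far from the other 3. Chance gives about 1 in 20 where values are not tied, which holds for the first 3 described. Mmp2 in BMDM of IR+BLZ945 recurrence was 7.72 log2 CPM in mouse 67947 against 6.41 to 6.53 in the other 3. Mmp2 in MG of IR recurrence was 6.78 in mouse 68345 against 6.28 to 6.32. Timp1 in MG of IR+BLZ945 recurrence was -0.15 in mouse 68362 against 2.48 to 2.91, and this mouse also had the lowest Mmp15 and the lowest sum of glioma and oligodendrocyte precursor markers of the recurrent MG libraries.

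In the remaining 4 sets a single library held counts and the other 3 held 0, which stand at -3.53 log2 CPM. Any count sets such a library apart by construction, so that the chance rate does not apply. They were Mmp15 in vehicle BMDM of mouse 78 (-0.73), Timp1 in BMDM of mouse 123 at 5 days of BLZ945 (2.33), Timp1 in MG of 65975 at the same stage (-1.46) and Timp3 in BMDM of 65975 (1.66). BMDM of 65975 also held the highest Mmp14 and Mmp19 and the lowest Mmp9 of its 4 libraries.

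The response to 5 days of BLZ945 differed between the populations for Mmp14, by 2.92 (MG minus BMDM, log2 scale, adjusted p = 0.00317), and for Mmp2, by 4.29 (adjusted p = 0.00141), both by the interaction contrast of edgeR's quasi-likelihood test.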

How the results depend on the processing

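Of the 37 calls, 17 were kept whichever library or mouse was left out, 15 in all 7 other settings and 13 in both, and 0 changed sign. Of 259 values under those other settings 220 kept the call. Leaving out a library or mouse gave 8 to 13 calls of MG against BMDM (12 in all), 2 to 11 of MG against vehicle (7), 2 to 6 of BMDM against vehicle (3), 6 to 12 of recurrent against 5-day MG (8), 4 to 9 of recurrent against 5-day BMDM (5) and 2 to 3 differences in response (2). MG against vehicle gave 4 calls in 1 fit over all libraries, 12 without the doubted libraries, 2 with the Malat1-Lars2 term, 4 with the number-style term and 12 in DESeq2. BMDM against vehicle gave 6 in 1 fit, 5 without the doubted libraries and 7 in DESeq2. Recurrence against 5 days gave 1 call with the Malat1-Lars2 term in MG and 1 in BMDM, and in BMDM 8 in 1 fit and 8 in DESeq2. DESeq2 called 5 differences in response. The cause was not tested.

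With the mouse as a replicate block there were 13 calls of MG against BMDM and 3 differences in response. The block added Mmp9 at 5 days of IR (-4.53, adjusted p = 0.0225) and the Mmp15 response to 5 days of IR+BLZ945 (-6.20, adjusted p = 0.0213), and changed no other call. Groups of 2 mice, Mmp15, Timp1 and Timp3 near 0 counts before recurrence, and the unknown strand setting limit the values most.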
